A study of Danio rerio with 27 samples.

Results

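A set of 99 of the 18336 genes in the deposited table is described here, those with the highest values after thioacetamide (TAA) relative to control in all 3 sorted liver cell populations of adult zebrafish. For every gene, the mean of the control libraries was subtracted from the mean of the TAA libraries separately in endothelial cells (ECs), hepatocytes (HEPs) and hepatic stellate cells (HSCs), the genes were ranked by the smallest of the 3 differences, and the first 100 were kept. Of 3 identifiers that the selection then removes (rnasel2, lrp2b and ctsl.1), only 1, rnasel2, was among the first 100, so 99 genes were left. A gene symbol was matched for 91 of the 99, and the other 8 are named by their Ensembl identifiers.

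The cells came from adult female zebrafish of the AB background carrying 1 of 3 fluorescent reporters. HEPs were sorted from Tg(fabp10a:dsRed) fish, HSCs from Tg(hand2:EGFP) fish and ECs from Tg(kdrl:ras-mCherry) fish, so a population is what its promoter drives and the sorting gate keeps. TAA was given by intraperitoneal injection at 500 mg/kg, 6 times over 2 weeks, and control fish received the vehicle. RNA-seq libraries were made from 100000 sorted cells with a low-input kit. There were 27 libraries in 9 groups of 3: reporter-positive cells of TAA fish, reporter-positive cells of control fish and reporter-negative cells of control fish, for each line. None of the 27 libraries came from reporter-negative cells of TAA fish. A TAA minus reporter-negative value therefore also compares reporter-positive with reporter-negative cells. The study's methods list fewer control fish than there are control libraries, so on that count some control libraries share fish. Which ones do is not given in the sources used here, and p-values measure the spread between libraries, which is then in part technical. In the study's table of sequencing metrics, duplicates were more frequent in the second read of a pair in every control entry of the reporter-positive cells and in the first read in every TAA entry. Every TAA minus control value below therefore compares libraries that also differ in sequencing, and the treatment and this difference cannot be told apart.

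The values are regularised log (rlog) values of read counts, a log2 scale running from -2.62 to 22.57. The transformation pulls low counts together, so a difference of a low gene is understated, and the deposited table holds no sequencing depth. Differences below are on this rlog scale, in log2 units, with the standard error (SE) of a limma fit over the 18 reporter-positive libraries, and levels are not compared between genes because the scale is not per length. Levels are given for the 3 libraries of a group in replicate order, those after TAA before those of controls.

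TAA is a classic liver toxicant that enzymes of the hepatocyte convert into reactive sulfur oxides. HEPs make most plasma proteins and carry the fatty acid, bile acid and drug metabolism of the liver, HSCs store vitamin A and lay down matrix after injury, and ECs line the sinusoids and clear particles from blood. The genes are taken below in the order of their roles, from signals between cells and their receptors to nuclear proteins, metabolism, secreted proteins and matrix.

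The labels were checked against marker lists. The mean rlog level over 21 endothelial markers was 7.71 to 7.99 in the EC control libraries, at most 2.58 in the other reporter-positive control libraries, and 0.50 to 0.90 in the EC libraries after TAA. The 22 hepatocyte markers had means of 8.23 to 9.32 in EC control libraries and of 13.05 to 13.46 in EC libraries after TAA, and EC libraries after TAA were above every HEP and HSC library in this mean. In HEP libraries it was 12.21 to 12.65 in controls and 12.43 to 12.61 after TAA, and in HSC libraries 11.74 to 12.70 and 12.44 to 12.51, so the control libraries labelled HSC held hepatocyte markers at levels that overlapped with those of HEPs. The leukocyte marker mean was 6.80 to 7.05 in EC controls and 1.15 to 1.43 in EC libraries after TAA. The mean of the stellate markers was 3.38 to 3.83 in HSC libraries after TAA and 1.2 to 2.43 in HSC controls, beside 1.75 to 1.76 in HEP controls and 1.83 to 2.32 in the reporter-negative HEP-line libraries, so HSC controls were not set apart from HEPs by stellate markers either. The third reporter-negative library of the HSC line stood apart. Its hepatocyte marker mean was 6.66 against 12.08 to 12.54 in the other 8 reporter-negative libraries, and its exocrine pancreas marker mean was 12.74. Genes called between reporter-negative lines at an adjusted p under 0.05 are given with and without it. Values that set TAA libraries against the HSC-line reporter-negative libraries are given only with it. In such bulk samples, fewer cells of a type and less RNA per cell cannot be told apart.

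**Figure D1:**
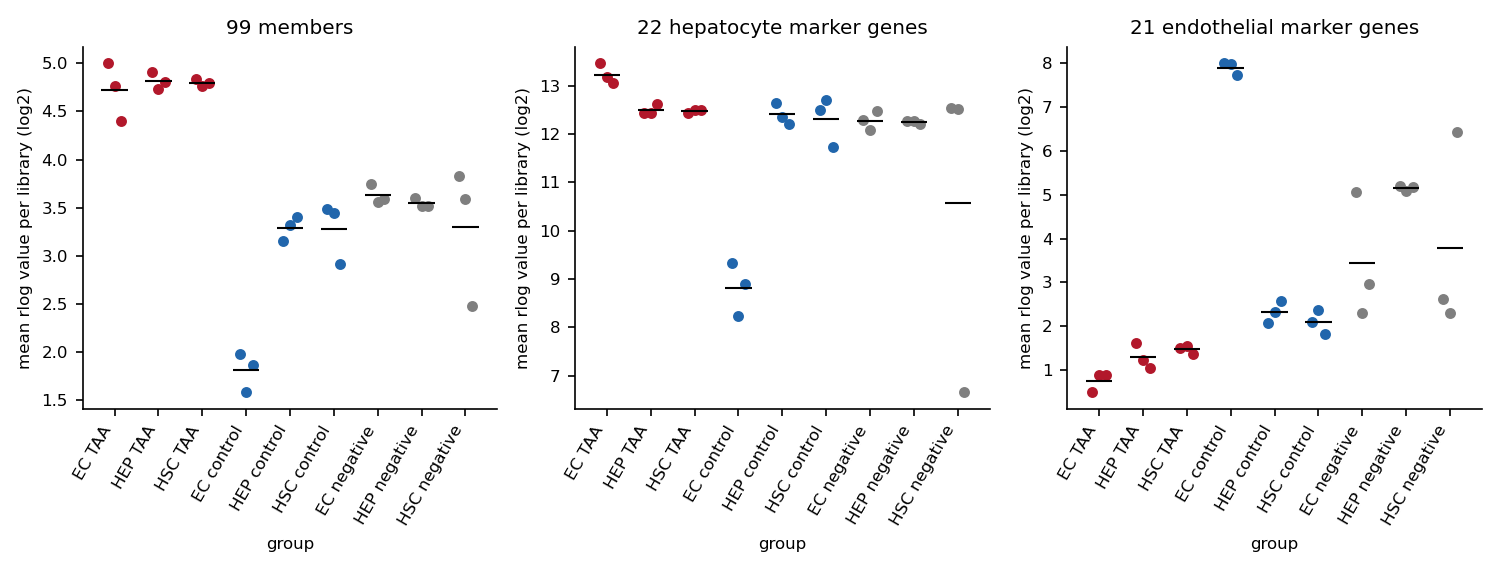
Mean rlog level (log2) per library of the 99 genes (left), of 22 hepatocyte markers (middle) and of 21 endothelial markers (right). Points are the 27 libraries and bars the mean of each group of 3. The 9 TAA libraries lie between 4.40 and 5.00 for the 99 genes and the 18 control libraries between 1.58 and 3.83, while in ECs the hepatocyte markers are higher and the endothelial markers lower after TAA.

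In ECs the differences between TAA and control chosen by the selection ran from 0.92 to 7.14 with a median of 2.66, in HEPs from 0.91 to 3.94 with a median of 1.31, and in HSCs from 0.92 to 4.04 with a median of 1.38. The medians over all genes were -0.25, -0.018 and -0.063. These differences are the values that chose the genes, so they describe the set and test nothing. The limma test called 92 of the 99 up in ECs, 31 in HEPs and 31 in HSCs, beside 19.7%, 2.13% and 4.26% of all genes, and nothing is read from this. Called up in all 3 populations were 16 of the 99, beside 0.153% of all genes.

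The mean over the 99 genes was 5.00, 4.77 and 4.40 in the EC libraries after TAA and 1.97, 1.58 and 1.86 in their controls. HEP libraries had means of 4.91, 4.73 and 4.8 after TAA and of 3.15, 3.32 and 3.40 in controls, and HSC libraries of 4.84, 4.76 and 4.8 after TAA and of 3.48, 3.45 and 2.91 in controls. The 9 TAA libraries thus lay between 4.40 and 5.00 whatever the population, above all 18 controls, and the EC controls lay below the other reporter-positive controls. Per gene, the range over the 3 populations after TAA had a median of 0.74 for the 99 and 0.49 for all genes. Both medians were lower than in reporter-positive controls, where that of all genes was 1.24. A narrow range after TAA was thus not particular to the set. The control means of ECs were the lowest of the 3 for 85 of the 99 genes, against 35.3% of all genes. Control means were under 1 for 43 of the 99 in ECs, 12 in HEPs and 11 in HSCs. The shares over all genes were 20.9%, 23.4% and 24.1%. With TAA, 2 of the 99 had a group mean under 1 in ECs, 2 in HEPs and 0 in HSCs, beside 28.5%, 24.6% and 25.3% of all genes. The selection favoured high TAA and low control values, so the means and counts of this paragraph describe the set and test nothing.

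The largest of the 3 differences was that of ECs for 79 genes, of HEPs for 8 and of HSCs for 12. Among the 2460 genes with a positive difference in every population, 59% had the largest in ECs, 19% in HEPs and 22% in HSCs. The smallest, which set the rank, was that of HEPs for 47 genes and of HSCs for 44. The gap between largest and smallest had a median of 1.60, was under 1 for 29 genes and at least 3 for 15. Centring every library on its median over all genes moved the median of all EC differences from -0.25 to 0.32 and that of the 99 to 3.24. All 99 stayed above 0 in every population under this scaling and under quantile normalization. The selection had put every difference at 0.91 or more, and centring shifts all differences of a population alike, so nothing is read from this. In ECs the mean of the 22 hepatocyte markers was at most 9.32 in controls and at least 13.05 after TAA, and its part in the EC differences of the 99 was not tested.

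**Figure D2:**
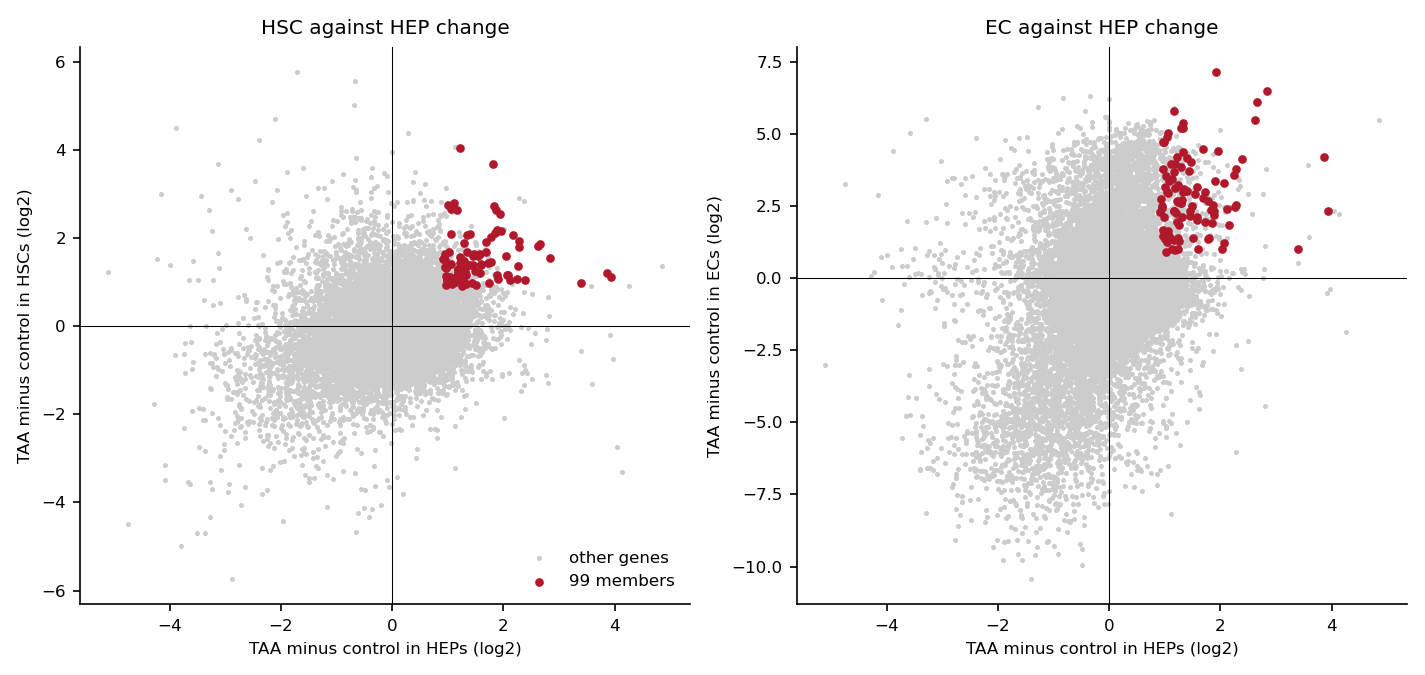
TAA minus control (rlog, log2 units) of every gene in HSCs against HEPs and in ECs against HEPs, with the 99 genes in red and the other genes in grey. The red points start at the limit of the selection, 0.91 in every population, and reach 7.14 in ECs, 3.94 in HEPs and 4.04 in HSCs.

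**Figure D3:**
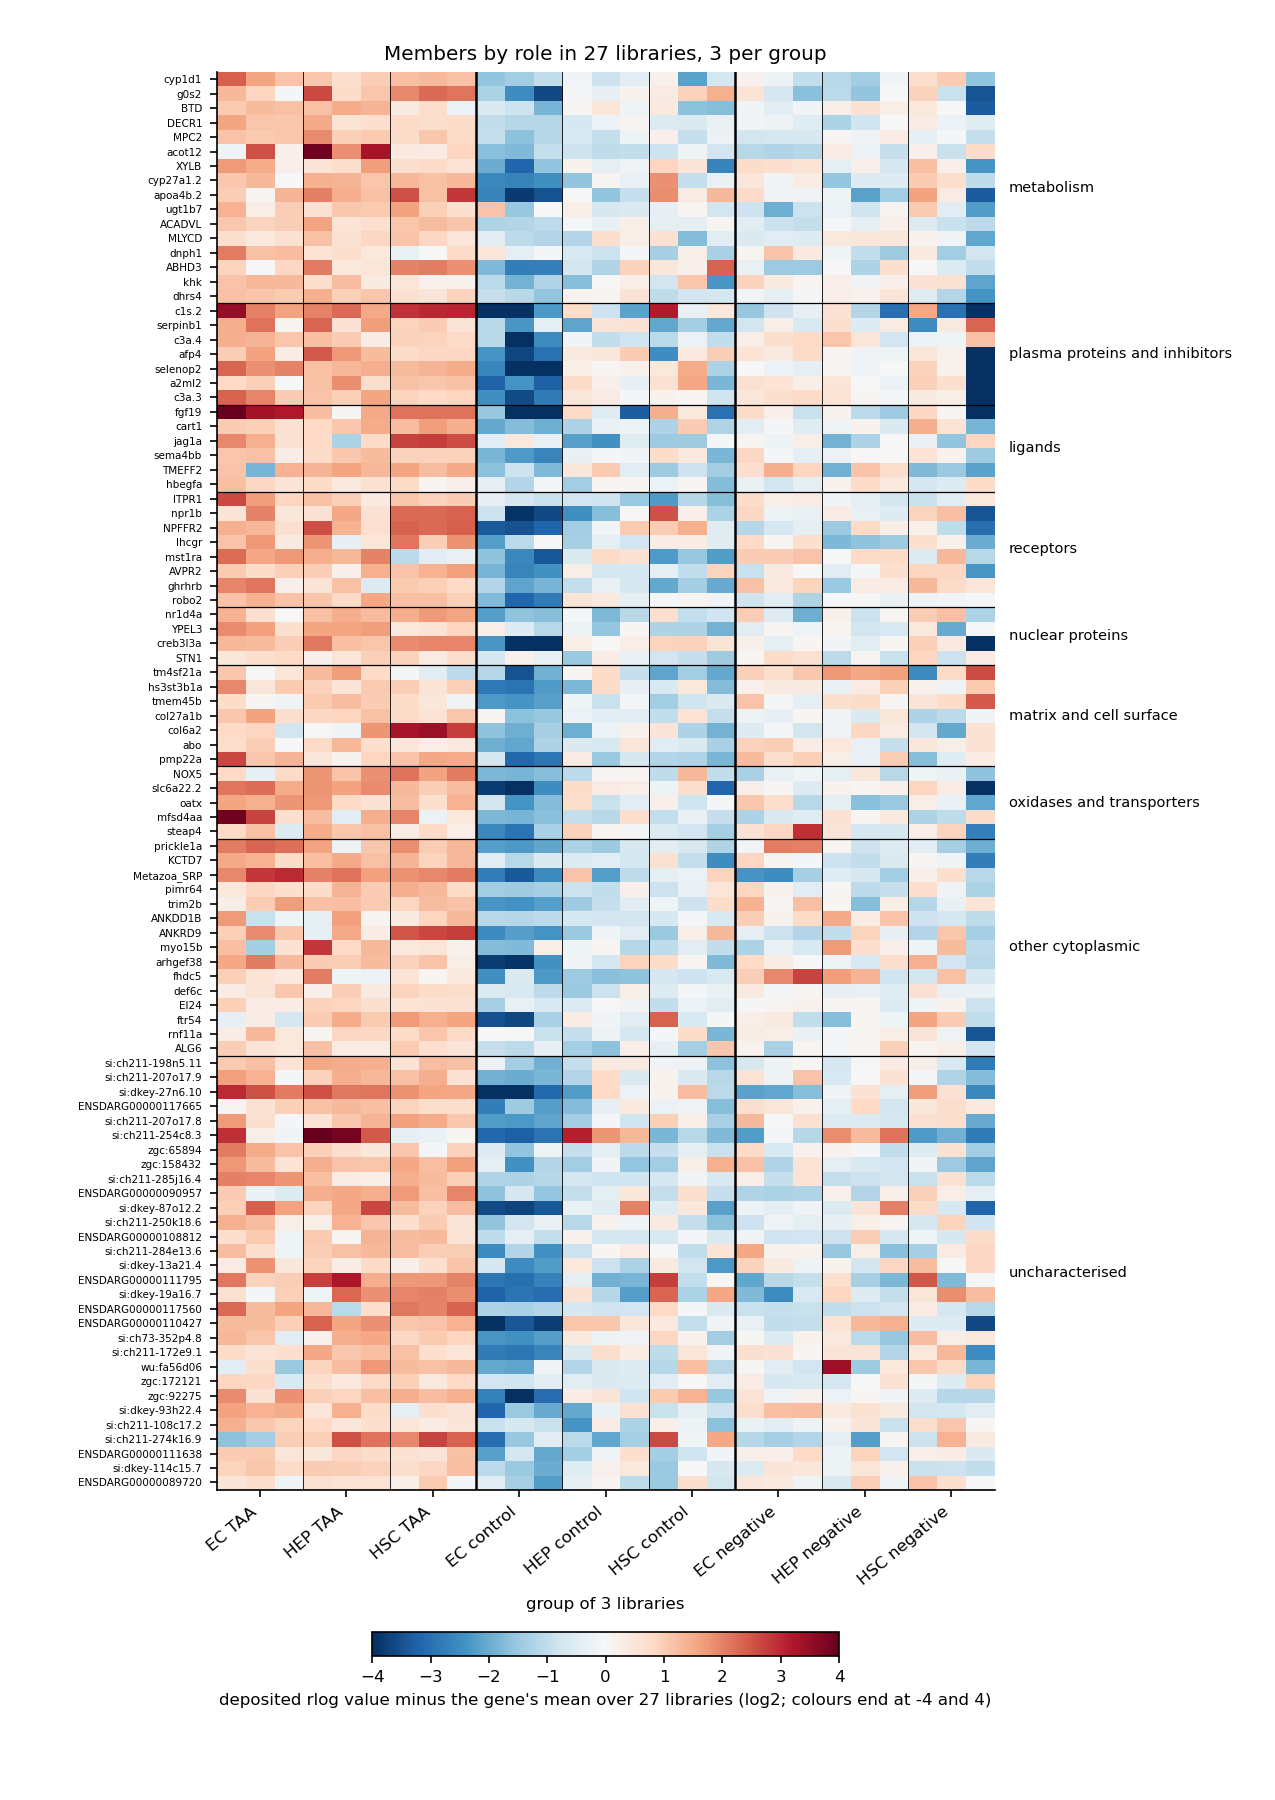
Heat map of 98 of the 99 genes (rows, grouped by role) in the 27 libraries (columns), coloured by the rlog value after subtraction of each gene's average, from -4 to 4 in log2 units. Columns of TAA libraries are above the gene means nearly throughout, and the EC control columns are below them.

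Of the 99, 6 encode ligands or other secreted signals. The median difference over these 6 was 2.2 in ECs, against 1.44 in HEPs and 2.23 in HSCs. fgf19 (ENSDARG00000098663) encodes the fibroblast growth factor that in mammals is induced by bile acids and represses their synthesis. Its levels were 9.38, 8.38 and 8.23 in the EC libraries after TAA and 3.54, 0.34 and 0.70 in EC controls, a difference of 7.14 (SE 1.0), the highest of the set in ECs. HEP libraries held it at 6.29, 5.09 and 6.55 after TAA and at 5.84, 4.55 and 1.74 in controls, and HSC libraries at 7.22, 7.22 and 7.22 against 6.5, 5.46 and 2.06. The groups did not overlap in ECs and HSCs but did in HEPs, where the second TAA library was below the first control.

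jag1a (ENSDARG00000030289) encodes a Jagged ligand of Notch receptors. In HSCs its levels were 6.32, 6.40 and 6.24 after TAA and 2.16, 2.22 and 3.55 in controls, a difference of 3.67 (SE 0.57). In ECs they were 5.55, 5.04 and 4.20 after TAA and 3.20, 4.06 and 3.33 in controls, and in HEPs 4.44, 2.37 and 4.40 against 1.46, 1.21 and 3.13. HSC libraries after TAA thus had the highest jag1a levels of the series, and the HEP groups overlapped. The reporter-negative HSC-line libraries held jag1a at 3.38, 2.04 and 4.48, below the HSC libraries after TAA.

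cart1, a neuropeptide precursor of the cocaine- and amphetamine-regulated transcript family, was 3.0, 2.95 and 2.59 in ECs after TAA and -0.049, 0.25 and 0.054 in EC controls. Its differences were 2.76 in ECs, 1.69 in HEPs and 1.92 in HSCs, with no overlap in any population. The other 3 were sema4bb, a membrane-bound semaphorin, hbegfa, an EGF-family growth factor, and TMEFF2, a membrane protein with follistatin and EGF-like domains. The sema4bb differences were 3.11 in ECs, 1.2 in HEPs and 1.15 in HSCs, those of hbegfa 1.37 in ECs, 1.0 in HEPs and 0.97 in HSCs, and those of TMEFF2 1.64 in ECs, 1.05 in HEPs and 2.65 in HSCs.

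Among the genes were 8 encoding receptors or ligand-gated channels, whose median difference was 3.50 in ECs, against 1.39 in HEPs and 1.64 in HSCs. ITPR1 (ENSDARG00000014655), the IP3-gated channel that releases calcium from the endoplasmic reticulum, was 9.47, 8.52 and 7.70 in EC libraries after TAA and 6.51, 6.17 and 5.95 in EC controls. In HEPs it was 8.01, 7.79 and 7.22 after TAA and 6.08, 6.05 and 5.37 in controls, and in HSCs 7.95, 7.77 and 7.84 against 4.59, 5.69 and 5.12. Neither the reporter-positive nor the reporter-negative controls of the same line overlapped with TAA in any population, and the differences were 2.36 in ECs, 1.84 in HEPs and 2.72 in HSCs (SE 0.36 each).

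npr1b, a natriuretic peptide receptor with guanylyl cyclase activity, had differences of 3.79 in ECs, 2.28 in HEPs and 1.80 in HSCs. Its levels in HSC controls were 6.64, 4.28 and 2.83, the first of them above all HSC libraries after TAA (6.35, 6.36 and 6.44), so the groups overlapped. NPFFR2, a receptor of neuropeptide FF, was 4.87, 4.79 and 4.11 in ECs after TAA and 0.094, -0.031 and 0.28 in EC controls. Its difference was 4.47 in ECs, against 1.69 in HEPs and 1.68 in HSCs, with an overlap in HEPs. lhcgr, the receptor of luteinizing hormone, differed by 2.17 in ECs, 1.46 in HEPs and 1.60 in HSCs without overlap.

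robo2 (ENSDARG00000014891), a receptor of slit guidance proteins, was 8.12, 8.37 and 8.11 in ECs after TAA and 5.21, 3.81 and 4.17 in controls. Levels in HEPs were 8.08, 7.76 and 8.52 against 7.48, 7.38 and 6.62, and in HSCs 8.17, 8.18 and 7.92 against 6.95, 7.07 and 6.86. All 9 TAA libraries lay above all 18 control libraries for robo2, a property of 11 of the 99 genes and 0.191% of all genes. The other 3 receptors were mst1ra, which binds macrophage-stimulating protein, AVPR2, a vasopressin receptor, and ghrhrb, a receptor of growth hormone-releasing hormone. Their differences ran from 3.16 to 4.37 in ECs, from 1.0 to 1.33 in HEPs and from 1.41 to 2.74 in HSCs.

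Nuclear proteins made up 5 of the 99 genes, with median differences of 1.85 in ECs, 1.60 in HEPs and 1.69 in HSCs. nr1d4a (ENSDARG00000031161) belongs to the Rev-erb nuclear receptors, repressors that take part in the circadian clock and in metabolism, and ranked second. Its levels were 4.11, 3.38 and 2.71 in ECs after TAA and 0.52, 1.09 and 1.02 in controls, 3.87, 4.17 and 3.97 against 2.67, 0.90 and 1.61 in HEPs, and 4.16, 4.39 and 4.28 against 3.37, 1.73 and 1.91 in HSCs. The groups did not overlap in any population, and the differences were 2.53 in ECs, 2.28 in HEPs and 1.94 in HSCs.

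creb3l3a (ENSDARG00000056226) encodes CREB-H, a transcription factor of the liver and intestine that is activated by cleavage and switches on genes of lipid metabolism. In ECs its levels were 8.25, 8.19 and 7.89 after TAA and 4.58, 1.19 and 2.91 in controls. Its levels were 9.02, 8.13 and 8.02 against 7.14, 6.90 and 7.14 in HEPs and 8.81, 8.85 and 8.88 against 7.80, 7.84 and 7.44 in HSCs. All 9 TAA libraries were above all 18 control libraries, and the difference was 5.22 in ECs (SE 0.50), against 1.33 in HEPs and 1.16 in HSCs.

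YPEL3, a small zinc-binding protein of the Yippee family, differed by 1.85 in ECs, 2.17 in HEPs and 2.06 in HSCs, and its TAA libraries lay above the controls of every population. STN1, a subunit of the CST complex that protects telomeres, was among the last 3 inside the limit with 0.92 in ECs, 1.03 in HEPs and 1.69 in HSCs.

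Enzymes and carriers of metabolism were the largest named group, with 16 genes and median differences of 2.34 in ECs, 1.24 in HEPs and 1.19 in HSCs. The mitochondrial oxidation of fatty acids was represented by ACADVL (ENSDARG00000016687), which starts the oxidation of very long chains, and DECR1 (ENSDARG00000003869), which reduces the double bonds of unsaturated ones. ACADVL levels were 9.83, 9.64 and 9.73 in ECs after TAA and 7.53, 7.59 and 7.72 in controls, 10.36, 9.32 and 9.43 against 8.69, 8.46 and 8.99 in HEPs, and 9.87, 10.02 and 9.86 against 8.40, 8.40 and 8.86 in HSCs. DECR1 levels were 7.17, 6.67 and 6.65 against 4.60, 4.45 and 4.44 in ECs, 7.09, 6.12 and 6.26 against 4.93, 5.34 and 5.68 in HEPs, and 6.36, 6.27 and 6.31 against 5.03, 4.98 and 5.27 in HSCs. For both genes every TAA library exceeded every control library, reporter-negative ones included, with differences of 2.12 in ECs, 0.99 in HEPs and 1.36 in HSCs for ACADVL and 2.33 in ECs, 1.2 in HEPs and 1.21 in HSCs for DECR1.

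The same held for MPC2, a subunit of the carrier that brings pyruvate into mitochondria. Its levels were 6.79, 6.69 and 6.76 in ECs after TAA against 4.72, 4.02 and 4.53 in controls, 7.54, 6.62 and 6.71 against 5.03, 4.69 and 5.47 in HEPs and 6.38, 6.72 and 6.40 against 5.84, 4.73 and 5.42 in HSCs. MLYCD, which breaks down the malonyl-CoA that blocks fatty acid entry into mitochondria, differed by 1.48 in ECs, 0.97 in HEPs and 1.33 in HSCs. g0s2, an inhibitor of the lipase that releases stored fat, differed by 3.15 in ECs, 1.58 in HEPs and 1.22 in HSCs.

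acot12 (ENSDARG00000054534), an acetyl-CoA thioesterase, had the highest difference of the set in HEPs. It was 4.62, 2.55 and 4.03 in HEP libraries after TAA and -0.094, -0.27 and -0.24 in HEP controls, a difference of 3.94 (SE 0.59). In ECs it was 0.55, 3.31 and 0.95 after TAA and -0.95, -1.04 and -0.22 in controls, and in HSCs 1.14, 1.05 and 1.60 against -0.085, 0.58 and -0.040. The TAA and control groups did not overlap in any population, and the mean after TAA was highest in HEPs.

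**Figure D4:**
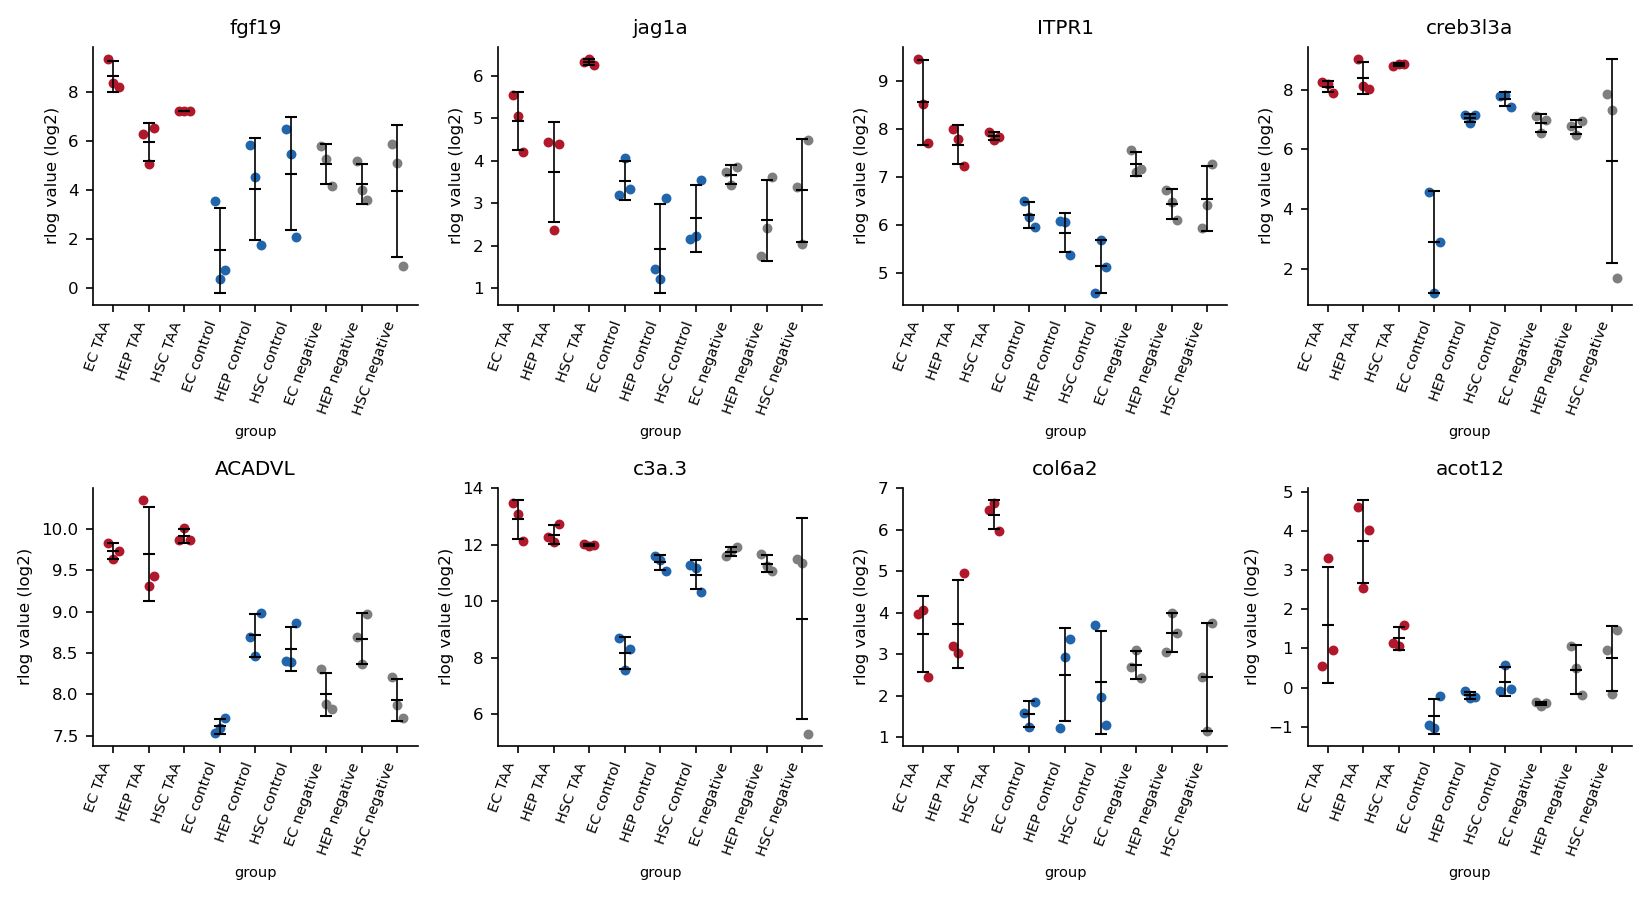
rlog levels (log2) of fgf19, jag1a, ITPR1, creb3l3a, ACADVL, c3a.3, col6a2 and acot12 in the 9 groups. Points are libraries, bars the mean and lines the SD of 3 libraries. The TAA groups are highest in each line, with jag1a and col6a2 highest in HSCs, acot12 in HEPs and fgf19 in ECs.

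Sterol, drug and sugar metabolism supplied the other enzymes. cyp27a1.2, a mitochondrial sterol hydroxylase of bile acid synthesis, differed by 3.37 in ECs, 1.9 in HEPs and 1.07 in HSCs, and in HSCs the first control (4.51, 1.71 and 2.39 in the 3 controls) was above all TAA libraries (3.99, 3.84 and 4.0). cyp1d1, a cytochrome P450 of family 1, differed by 3.03 in ECs, 1.40 in HEPs and 2.1 in HSCs without overlap. Ketohexokinase, khk, differed by 2.64 in ECs, 1.25 in HEPs and 0.92 in HSCs and dhrs4, a carbonyl and retinal reductase, by 2.31 in ECs, 0.91 in HEPs and 1.53 in HSCs, and both were among the last 3 inside the limit. The HSC difference of khk was 0.085 without the third HSC control and 1.80 without the second. XYLB, a xylulose kinase, was 5.32, 5.46 and 5.23 in HSCs after TAA and 5.56, 5.19 and 2.01 in HSC controls, so that its HSC difference of 1.08 rested on the third control and was -0.043 without it. The last 5 were BTD, which frees biotin, ugt1b7, a glucuronosyltransferase, dnph1, a nucleotide hydrolase, ABHD3, a phospholipase, and apoa4b.2, an apolipoprotein of triglyceride-rich particles. Over these 5 the EC differences ran from 1.0 to 4.14, and those of apoa4b.2 were 4.14 in ECs, 2.38 in HEPs and 1.04 in HSCs.

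Secreted plasma proteins and protease inhibitors were 7 genes, with median differences of 4.02 in ECs, 1.19 in HEPs and 1.17 in HSCs. c3a.3 (ENSDARG00000052207) and c3a.4 (ENSDARG00000093198) are copies of the complement component C3 gene, which lie in a family of near-identical copies, so the division of reads among them is uncertain. c3a.3 levels were 13.49, 13.08 and 12.15 in ECs after TAA and 8.69, 7.57 and 8.3 in controls. They were 12.26, 12.08 and 12.71 against 11.60, 11.46 and 11.08 in HEPs and 12.03, 11.94 and 11.99 against 11.29, 11.18 and 10.34 in HSCs. All 9 TAA libraries exceeded all 18 control libraries, with differences of 4.72 in ECs, 0.98 in HEPs and 1.05 in HSCs. c3a.4 differed by 4.02 in ECs, 1.47 in HEPs and 1.64 in HSCs, without overlap with the reporter-positive controls.

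c1s.2 (ENSDARG00000102094), a serine protease of the classical complement pathway, was 8.27, 6.78 and 6.37 in ECs after TAA and 0.38, 0.23 and 2.44 in controls, a difference of 6.12 (SE 0.77). It was 6.73, 7.02 and 6.26 after TAA and 5.48, 3.92 and 2.61 in controls of HEPs, and 7.64, 7.76 and 7.79 against 7.93, 4.46 and 5.18 in HSCs. The groups did not overlap in ECs and HEPs, and in HSCs the first control was above the 3 TAA libraries. The remaining 4 were serpinb1, an intracellular inhibitor of neutrophil proteases (2.52 in ECs, 1.86 in HEPs and 2.64 in HSCs), afp4, named for antifreeze proteins (3.96 in ECs, 1.19 in HEPs and 1.17 in HSCs), selenop2, a selenoprotein P (5.79 in ECs, 1.16 in HEPs and 1.15 in HSCs), and a2ml2, of the alpha-2-macroglobulin family (3.53 in ECs, 1.03 in HEPs and 1.06 in HSCs). Among these, 2 HSC differences rested on single controls. That of a2ml2 was 0.095 without the third control and 1.77 without the second, and that of afp4 0.11 without the first and 1.84 without the third. The HSC difference of selenop2 also varied, from 0.41 to 1.78 over the alternatives and left-out libraries.

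Matrix and cell surface genes numbered 7, with median differences of 2.49 in ECs, 1.29 in HEPs and 1.35 in HSCs. col6a2 (ENSDARG00000061436), a chain of the beaded-filament collagen VI, had the highest difference of the set in HSCs. Its levels were 6.48, 6.66 and 5.97 in HSC libraries after TAA and 3.71, 1.97 and 1.30 in HSC controls, a difference of 4.04 (SE 0.65). In ECs they were 3.98, 4.06 and 2.45 against 1.58, 1.24 and 1.86, and in HEPs 3.19, 3.04 and 4.96 against 1.24, 2.94 and 3.36. The HSC and EC groups did not overlap, the HEP groups did, and the HSC libraries after TAA were above all other libraries. The HEP difference of 1.22 ranged from 0.25 to 1.64 over the alternatives and left-out libraries.

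pmp22a, a gene of the peripheral myelin protein family, was 4.33, 4.73 and 4.69 in HSCs after TAA and 2.03, 2.00 and 1.36 in HSC controls, with differences of 3.95 in ECs, 1.11 in HEPs and 2.79 in HSCs. col27a1b, a fibrillar collagen of cartilage in mammals, differed by 2.13 in ECs, 1.31 in HEPs and 1.26 in HSCs, with no overlap between TAA and reporter-negative libraries in any line but an overlap with the HSC controls. The other 4 were hs3st3b1a, a heparan sulfate sulfotransferase, abo, a glycosyltransferase of the blood group family, tm4sf21a, a tetraspanning membrane protein, and tmem45b. Over these 4 the differences were 2.31 to 3.85 in ECs, 1.16 to 1.49 in HEPs and 1.13 to 1.47 in HSCs.

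Oxidases and transporters were 5 genes, with median differences of 3.21 in ECs, 1.24 in HEPs and 1.43 in HSCs. NOX5 (ENSDARG00000079773), a calcium-activated NADPH oxidase that makes superoxide, was 2.26, 1.14 and 2.24 in ECs after TAA and -0.32, -0.39 and -0.23 in controls. In HEPs it was 3.24, 2.59 and 3.30 against 0.43, 1.5 and 1.55, and in HSCs 3.65, 3.07 and 3.53 against 0.44, 2.76 and 0.47. No group overlapped with its reporter-positive control, and the differences were 2.19 in ECs, 1.89 in HEPs and 2.19 in HSCs. steap4, a metalloreductase that is also used as a stellate marker, differed by 2.74 in ECs, 0.94 in HEPs and 1.34 in HSCs, and its highest level, 9.47, was in the third reporter-negative EC-line library. The others were slc6a22.2, a neurotransmitter transporter-family gene (5.38 in ECs, 1.34 in HEPs and 2.07 in HSCs), oatx, of the organic anion transporters (3.21 in ECs, 1.24 in HEPs and 1.32 in HSCs), and mfsd4aa, of the major facilitator superfamily (4.19 in ECs, 1.22 in HEPs and 1.43 in HSCs).

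Other cytoplasmic genes numbered 15, with median differences of 2.02 in ECs, 1.51 in HEPs and 1.17 in HSCs. The gene ranked first, prickle1a (ENSDARG00000040649), encodes a component of planar cell polarity signalling. It was 4.0, 4.23 and 4.12 in ECs after TAA and -0.30, -0.38 and -0.17 in controls, 3.52, 1.72 and 2.98 against 0.64, 0.46 and 1.25 in HEPs, and 3.76, 2.94 and 3.23 against 1.49, 1.27 and 0.69 in HSCs. No TAA group overlapped with its reporter-positive controls. The reporter-negative EC-line libraries, at 1.81, 3.95 and 3.94, were below the EC libraries after TAA but above the EC controls.

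KCTD7, of the potassium channel tetramerisation domain family, differed by 1.93 in ECs, 1.85 in HEPs and 2.13 in HSCs, and pimr64, of the Pim kinase-related genes, by 2.02 in ECs, 1.59 in HEPs and 1.40 in HSCs. Metazoa_SRP, an entry for the RNA of the signal recognition particle, which exists in many copies, so that its reads are uncertain, differed by 5.47 in ECs, 2.63 in HEPs and 1.83 in HSCs. ANKRD9, with ankyrin repeats, differed by 3.69 in ECs, 1.16 in HEPs and 2.63 in HSCs, and ANKDD1B by 1.32 in ECs, 1.17 in HEPs and 1.28 in HSCs. EI24, a membrane protein of the endoplasmic reticulum that is induced by p53 in mammals, differed by 1.25 in ECs, 1.04 in HEPs and 1.13 in HSCs, and all 9 TAA libraries were above the 18 controls. The remaining 8 were trim2b, ftr54 and rnf11a, with domains of ubiquitin ligases, the myosin gene myo15b, the exchange factor genes arhgef38 and def6c, fhdc5, and ALG6, a glucosyltransferase of N-glycan assembly. Their EC differences ran from 0.99 to 5.02.

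For 30 genes no function is given here. Their median differences were 2.67 in ECs, 1.37 in HEPs and 1.43 in HSCs. Among the high ranks were si:ch211-198n5.11 (2.12 in ECs, 1.57 in HEPs and 1.64 in HSCs), si:ch211-207o17.9 (2.90 in ECs, 1.55 in HEPs and 1.60 in HSCs) and its neighbour by name si:ch211-207o17.8 (2.98 in ECs, 1.72 in HEPs and 1.43 in HSCs), whose reads may not be separable. si:dkey-27n6.10 reached 6.48 in ECs with 2.83 in HEPs and 1.55 in HSCs, while zgc:65894 and zgc:158432 had differences of 2.33 in ECs, 1.45 in HEPs and 1.38 in HSCs and of 2.48 in ECs, 2.27 in HEPs and 1.38 in HSCs. ENSDARG00000111795 (4.21 in ECs, 3.87 in HEPs and 1.2 in HSCs) and si:ch211-274k16.9 (1.0 in ECs, 3.40 in HEPs and 0.97 in HSCs) had high HEP differences. For si:ch211-274k16.9 the EC difference was 0.17 without the third TAA library and 0.15 with the median of replicates, and the HSC difference 0.23 without the second control. Listed at low levels in the reporter-negative libraries were si:ch211-285j16.4 (3.11 in ECs, 1.35 in HEPs and 1.69 in HSCs), ENSDARG00000117560 (2.94 in ECs, 1.06 in HEPs and 2.09 in HSCs) and zgc:172121 (1.02 in ECs, 1.14 in HEPs and 1.0 in HSCs). Apart from si:ch211-254c8.3, the remaining 18 genes had differences of 1.01 to 5.20 in ECs, 0.95 to 2.24 in HEPs and 0.93 to 2.03 in HSCs.

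Group overlap is the plainest way to read the spread. Every TAA library was above every reporter-positive control for 92 of the 99 in ECs, for 73 in HEPs and for 73 in HSCs, beside 25.4%, 12.8% and 12.7% of all genes, and in all 3 populations for 47, beside 1.21% of all genes. These counts follow from the selection and are not evidence about the genes. Against the reporter-negative libraries of the same line, which the selection did not use, every TAA library was higher for 54 in ECs, 66 in HEPs and 62 in HSCs, beside 11.8%, 13.4% and 10.3% of all genes. In all 3 lines this held for 23 genes, beside 1.35% of all genes, and in none for 10, beside 73.4%. Because the TAA side of that comparison did take part in the selection, the counts are a description as well. The 11 genes with all 9 TAA libraries above all 18 controls were DECR1, MPC2, ACADVL, creb3l3a, robo2, c3a.3, EI24, Metazoa_SRP, slc6a22.2, si:ch211-198n5.11 and si:dkey-114c15.7.

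Reporter-negative cells are the part of the data that the selection left out. The mean over the 99 was 3.74, 3.55 and 3.59 in the EC-line, 3.60, 3.51 and 3.52 in the HEP-line, and 3.83, 3.59 and 2.48 in the HSC-line libraries. The median TAA minus reporter-negative difference was 1.01 in ECs, 1.22 for HEPs and 1.33 in HSCs, beside medians of -0.13, -0.090 and -0.093 over all genes. The HSC value includes the third HSC-line library, with its low mean of 2.48. The EC-line reporter-negative libraries lay between the EC controls and the EC libraries after TAA for the mean of the set, and the HEP-line ones lay above the HEP controls. The latter was not particular to the set, since the mean of all other genes was 3.79 in the HEP-line reporter-negative libraries and 3.57 in HEP controls. Reporter-positive libraries took part in the selection, so this order is a description.

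Levels in the reporter-negative libraries were compared between lines with limma over the 9 of them. Of the 99 genes 0 were called between the EC and HEP lines, 0 between the EC and HSC lines and 1 between the HEP and HSC lines at an adjusted p under 0.05, beside 0.104%, 0.344% and 0.224% of all genes. With 3 libraries per line, 0 calls do not show that levels were equal. At an unadjusted p under 0.05 the counts were 11, 15 and 10 of the 99, beside 8.34%, 9.55% and 11%. The 1 gene was si:ch211-254c8.3, at 4.68, 4.09 and 4.99 in the HEP-line, at 0.57, 0.93 and 0.050 in the HSC-line and at 0.59, 2.74 and 1.71 in the EC-line libraries. Its HEP minus HSC difference was 4.07 (limma, adjusted p = 0.0387), with adjusted p-values from 0.00308 to 0.643 over 11 alternatives, of which 2 called it. Its TAA minus control differences in reporter-positive cells were 4.15 in ECs, 1.40 in HEPs and 1.40 in HSCs.

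Without the third HSC-line library, limma called 6 of the 99 between the EC and HSC lines and 11 between the HEP and HSC lines. These shares, 6.06% and 11.1%, were below the 9.71% and 13.7% of all genes. Higher in the EC line were pmp22a by 2.07, si:dkey-93h22.4 by 1.75 and ITPR1 by 1.1. Higher in the HSC line were Metazoa_SRP, si:dkey-19a16.7 and si:dkey-27n6.10, with EC minus HSC differences of -2.49, -2.80 and -3.09. Between the HEP and HSC lines si:ch211-254c8.3 (3.84), tm4sf21a (2.54) and dhrs4 (1.15) were among the 6 higher in the HEP line, and creb3l3a (-0.84), cyp1d1 (-1.72), cyp27a1.2 (-1.73), lhcgr (-2.01) and apoa4b.2 (-2.21) were the 5 higher in the HSC line.

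The limit of the selection was narrow. The last 3 genes inside had a smallest difference of 0.92 (STN1), 0.92 (khk) and 0.91 (dhrs4), and the first 3 outside, si:dkey-97i18.6, cyp27a1.1 and rfx3, had 0.91 each. Leaving out 1 of the 18 libraries kept from 79 to 97 of the 99 among the first 100 genes. Ranked without ECs, by the smaller of the HEP and HSC differences, 61 of the 99 were among the first 100, an alternative chosen after the data were seen.

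Gene lists chosen for this tissue and treatment place the set beside its pathways, with the members left out of the counts. In ECs limma called 3611 genes up and 5776 down, 5833 up and 3756 down when libraries were centred on their medians, and 5112 up and 4557 down after quantile normalization. Fatty acid oxidation, with 25 genes beside ACADVL and DECR1, rose in ECs for 25, in HEPs for 4 with 2 falling, and in HSCs for 6. Carnitine palmitoyltransferases bring fatty acids into mitochondria. cpt1b differed by 5.57 in ECs (SE 0.21, adjusted p = 3.1e-13) and by 2.79 in HSCs (adjusted p = 4.3e-07) but by -0.030 in HEPs. cpt1ab differed by 3.85 in ECs, 0.82 in HEPs and 1.33 in HSCs (limma, adjusted p = 0.0039 in HSCs), and ppargc1a, a coactivator of mitochondrial genes, by 3.59 in ECs and -0.53 in HEPs.

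Of 29 cytochrome P450 genes beside cyp27a1.2, 25 rose and 1 fell in ECs, 1 rose and 1 fell in HEPs, and 5 rose and 1 fell in HSCs. cyp2k6 differed by 5.03 and cyp2x9 by 4.96 in ECs. Complement and acute phase genes, 24 beside c3a.3, rose for 21 and fell for 3 in ECs, fell for 2 in HEPs and rose for 2 in HSCs. c7b, a component of the membrane attack complex, differed by 5.04 in ECs and by -3.58 in HEPs (limma, adjusted p = 0.001). Extracellular matrix genes, 16 beside col6a2, rose for 13 in HSCs, rose for 2 and fell for 3 in ECs, and for 0 in either direction in HEPs (1 up and 2 down at an unadjusted p under 0.05). COL6A3, another chain of collagen VI, differed by -7.82 in ECs, -0.65 in HEPs and 3.09 in HSCs (limma, adjusted p = 0.00046), and col4a1, of basement membranes, by -8.55 in ECs, -0.45 in HEPs and 0.26 in HSCs.

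Cell type markers moved as follows, members left out. All 22 hepatocyte markers rose in ECs, and limma called 0 of them in HEPs (4 at an unadjusted p under 0.05) and 0 in HSCs (2). TAT, a tyrosine aminotransferase, rose by 4.84 in ECs (limma, SE 0.30, adjusted p = 7.5e-11). Endothelial markers fell for 20 of 21 in ECs, 5 in HEPs and 0 in HSCs (6 at an unadjusted p under 0.05), kdrl by 10.42 on the log2 scale and cdh5 by 9.59 in ECs. Leukocyte markers fell for 14 of 16 in ECs, 12 in HEPs and 10 in HSCs, and cd74a, an antigen presentation chaperone, changed by -9.08 in ECs, -2.77 in HEPs and -2.12 in HSCs. Stellate markers rose for 8 of 16 in HSCs, with postnb at 4.71 (limma, adjusted p = 0.0011), and for 1 in each of the others, where 3 fell in ECs and 1 in HEPs. Collagen genes, postnb and others are in both the stellate and the extracellular matrix list, so the counts of these lists overlap. Exocrine pancreas markers fell for 7 of 14 in HEPs and 5 in HSCs, with CPB1 at -4.08 in HEPs (limma, adjusted p = 0.0065), and for 0 in ECs (0 also at an unadjusted p under 0.05). Cholangiocyte markers, 12, rose for 2 and fell for 3 in ECs, 1 and 1 in HEPs, and 2 and 1 in HSCs. Erythrocyte markers, 9, rose for 1 and fell for 5 in ECs and for 0 in HEPs or HSCs (3 fell in each at an unadjusted p under 0.05), the 10 intestinal markers fell for 3 in ECs, rose for 1 and fell for 1 in HEPs and rose for 3 in HSCs, and of 3 ovary markers 1 fell in HEPs. With libraries centred on their medians the EC calls were 2 up and 2 down for stellate and 4 up and 1 down for cholangiocyte markers. They were 4 up and 3 down for intestinal, 1 up and 2 down for erythrocyte and 1 up and 14 down for leukocyte markers. Centring also called 1 ovary and 1 exocrine pancreas marker up in ECs. After quantile normalization 1 exocrine pancreas marker was up there as well.

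The other lists were mainly called in ECs. Counts there were 68 up of 68 for cytosolic ribosomal proteins, 37 up and 1 down of 45 for oxidative phosphorylation, 21 up of 25 for amino acid and one-carbon metabolism, 14 up and 4 down of 26 for glutathione and NRF2 targets, 11 up and 3 down of 27 for the unfolded protein response, 10 up of 22 for cholesterol synthesis, 11 up and 3 down of 16 for glycolysis and gluconeogenesis, 9 up and 2 down of 14 for heat shock, and 4 up of 29 for the proteasome. In the other direction were 22 down and 1 up of 28 for the lysosome, 14 down of 15 for interferon and antigen presentation, 11 down and 3 up of 18 for immediate early genes, 6 down and 3 up of 11 for p53 targets, and 3 down of 28 for the cell cycle, which centring turned to 3 up and 1 down. Centring also gave 3 up and 3 down for p53 targets and 10 up for the proteasome. With quantile normalization the ribosomal count was 54 up and 1 down, and the median EC difference of that list fell from 2.17 to 1.01. In HEPs the calls were 10 down for immediate early genes, 7 down for the unfolded protein response, 5 down for glycolysis, 4 down for the lysosome, 2 down for cholesterol synthesis, and 1 or 0 in either direction for the rest. In HSCs they were 11 up for immediate early genes, 9 down for the unfolded protein response, 5 up and 2 down for the lysosome, 5 down and 1 up for cholesterol synthesis, 4 up and 1 down for heat shock, 4 down for oxidative phosphorylation, 3 up and 1 down for the ribosome, and at most 2 in either direction for the rest. Centring turned the HSC calls of the lysosome to 4 up and 5 down, those of the ribosome to 0 up and 2 down, and those of interferon and antigen presentation from 1 up to 1 down. The third HSC control stood apart for cholesterol synthesis and the unfolded protein response. Its mean over the cholesterol list was 7.81, against 4.18 and 5.13 in the first and second controls and 4.05 to 4.29 after TAA. For the unfolded protein response its mean was 9.37, against at most 8.35 in the other controls. All HSC controls were above the 7.77 to 7.88 after TAA there. The HSC calls of these lists were not tested without the third control.

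**Figure D5:**
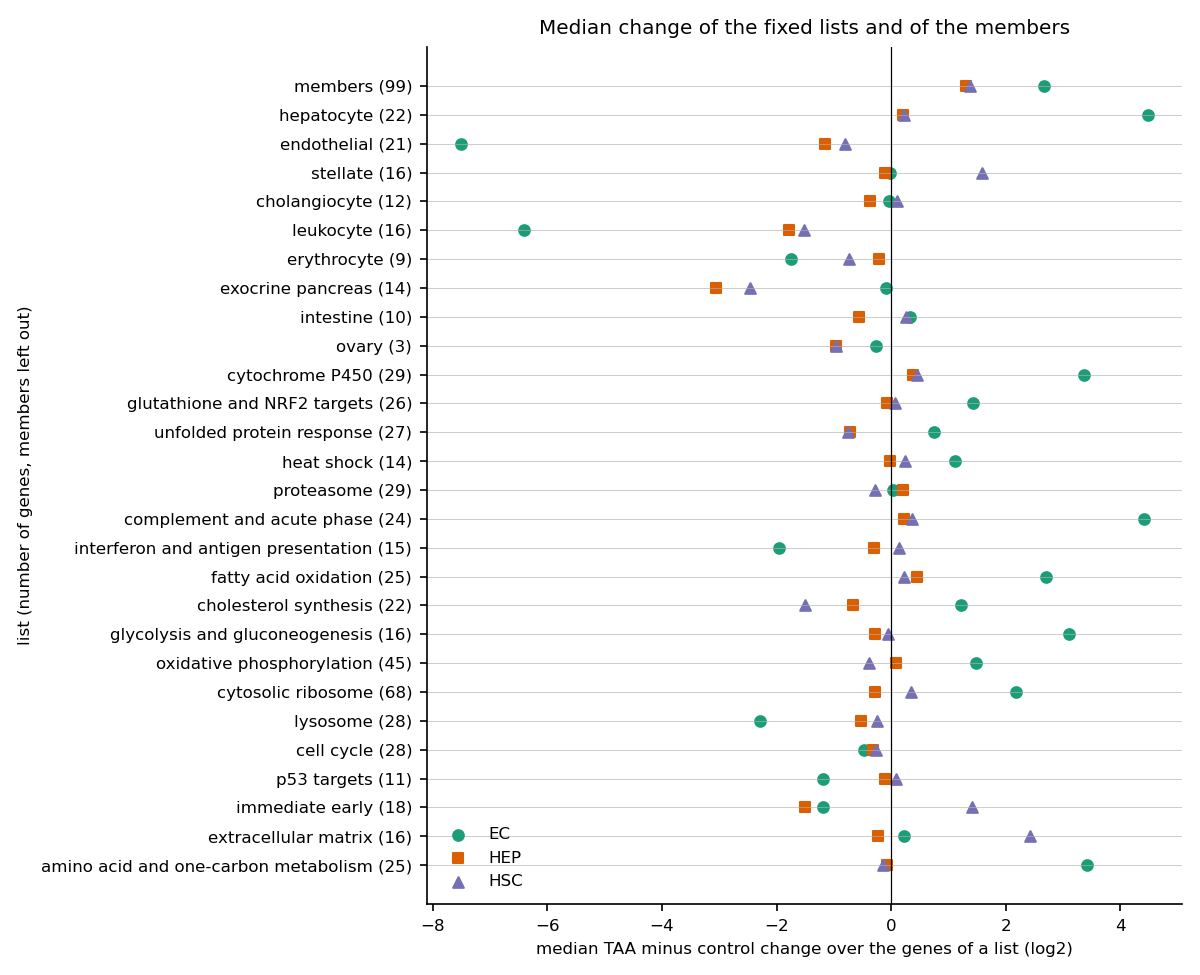
Median TAA minus control difference (rlog, log2 units) of each gene list, members left out, and of the 99 genes, in ECs, HEPs and HSCs. The set has medians of 2.66, 1.31 and 1.38 and fatty acid oxidation of 2.71, 0.45 and 0.23.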

How the data were processed

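RNA-seq of sorted cells was summarised by the authors as 1 table of rlog values, a log2 scale made with DESeq2, which was deposited with no counts. The submitters' processing notes name FastQC 0.11.8, cutadapt 1.18, STAR 2.6, SAMtools 1.9 and the genome build GRCz11, and rRNAdust removed ribosomal reads. The counting tool, the annotation and the rlog settings are not given in the sources used here. The transformation shrinks differences of low genes.

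The table was used unfiltered. TAA and control were compared with limma 3.58.1 in R 4.3.3 (group means, 18 reporter-positive libraries, eBayes with a variance trend, two-sided, Benjamini-Hochberg over all 18336 genes, threshold 0.05) and the 9 reporter-negative libraries between lines in the same way. For the genes of the set the TAA comparison is a description, since it chose them. Differences between populations in the TAA effect of other genes were interaction contrasts of that fit. Tests were checked on data simulated for TAA against control in ECs and for the reporter-negative EC and HEP lines. The fit between the reporter-negative EC and HEP lines missed most of them. A gene that was not called may therefore still differ. Tables and figures used Python 3.11.15, numpy 2.4.6, pandas 2.3.3 and matplotlib 3.10.9.

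The members and the gene lists were chosen with earlier results of these data known. The genes given with values were the first 25 by rank with a symbol, those in a list, those with the 3 largest differences per population, the extremes in reporter-negative libraries, those called between lines, those at the limit and those sharing a family name, and up to 3 further genes per list. Symbols came from a gene name table (74) and the study's supplement (17). The values of 1 member are not reported here. Promoter motifs were not searched here. Alternatives were other scalings, a filter at a mean value of 3, fits without the trend or on 6 libraries, a replicate block, left-out libraries, the median of replicates, and a ranking without ECs chosen after the data were seen.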

Additional observations from a re-analysis of the deposited data

Results flagged for a closer look

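Genes of the lists outside the set were given a closer look where the TAA difference itself differed between populations in a limma interaction test over the 18 reporter-positive libraries. Only the named genes, up to 3 per list, were looked at, and they had been picked by their large TAA differences in these same libraries. For each gene only the pair of populations with the lowest adjusted p is given. The adjusted p-values do not account for these choices. The values below are the difference of 2 TAA minus control differences, on the log2 scale, with adjusted p-values over all genes and 3 libraries per group.

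Endothelial genes differed between ECs and HSCs by -9.53 for kdrl (limma, adjusted p = 1.1e-08) and by -8.70 for cdh5 (limma, adjusted p = 4.6e-09), and the hepatocyte gene TAT by 5.50 (limma, adjusted p = 1.1e-08). The antigen presentation gene cd74a differed by -6.96 (limma, adjusted p = 2.8e-09). Matrix genes differed between ECs and HSCs by -10.91 for COL6A3 (limma, adjusted p = 1.1e-09) and by -8.81 for col4a1 (limma, adjusted p = 1.4e-07), and postnb between HEPs and HSCs by -6.81 (limma, adjusted p = 0.00188). Between ECs and HEPs the fatty acid genes differed by 5.60 for cpt1b (limma, adjusted p = 7.8e-10), 3.02 for cpt1ab (limma, adjusted p = 2.2e-06) and 4.12 for ppargc1a (limma, adjusted p = 1.2e-07). The P450 genes differed by 4.76 for cyp2k6 (limma, adjusted p = 1.0e-08) and 4.26 for cyp2x9 (limma, adjusted p = 0.000163), c7b by 8.62 (limma, adjusted p = 1.4e-07) and the pancreatic gene CPB1 by 3.34 (limma, adjusted p = 0.0361). Cell type markers moved with these EC differences, and their part in them was not tested.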

How the results depend on the processing

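The 99 genes were above 0 in all populations under centring and quantile normalization. The selection had put every difference at 0.91 or more, so nothing is read from this. Under these scalings and the median of replicates, 837 of 891 recomputed differences (genes by populations by alternatives) moved by less than the spread between libraries. Leaving out 1 of 3 libraries cannot shift a group mean by as much as that spread. This measure therefore says nothing about the 1782 differences recomputed with 1 library left out. Measured against their own size, 81 of the 297 differences moved by over 1.5 times under at least 1 alternative. Scalings, the median of replicates and left-out libraries were pooled for this count. It was made up of 12 in ECs, where centring raised every difference, 29 in HEPs and 40 in HSCs. The lowest included the HSC differences of si:dkey-19a16.7, 0.0035 without the second HSC control, and of zgc:92275, 0.16 without the third. Of the 1782, 1 changed sign, the HSC difference of XYLB. Its value of 1.08 ran from -0.043 without the third HSC control to 1.74. Among the first 100 were 59 with a filter at a mean of 3, which 59 of the 99 passed, 61 when ranked without ECs (chosen after the data were seen), 67 with the median of replicates, 83 after quantile normalization, 85 after centring and 79 to 97 without 1 library. The mean of the set differed between TAA and control by 2.92 in ECs (3.49 centred), 1.52 in HEPs (1.66 for the median over the genes) and 1.52 in HSCs. Without 1 library these were 2.78 to 3.08, 1.46 to 1.58 and 1.34 to 1.62. For reporter-negative libraries the mean differed by 0.025 to 0.12 between the EC and HEP lines, by -0.082 to 0.59 between EC and HSC and by -0.17 to 0.51 between HEP and HSC, the last pair of signs turning without the third HSC-line library.

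Counts of all genes called between reporter-negative lines moved widely. For EC and HEP they were 19, 8 without the trend, 4 with the filter, 3 centred, 555 with only the libraries compared and 0 to 7 without 1 library. For EC and HSC they were 63, 11 with the filter, 0 with only the libraries compared and 2 to 1781 without 1 library. For HEP and HSC they were 41, 20 with the filter, 14 centred, 25 after quantile normalization, 0 with only the libraries compared and 0 to 2509 without 1 library. The highest counts came without the third HSC-line library. TAA calls were 9387 in ECs (5917 with the filter, 8402 to 8705 without 1 library), 1357 in HEPs (770 to 1146) and 1505 in HSCs (630 with only the libraries compared, 733 to 1868), and the low HEP and HSC counts came without 1 of the TAA libraries. For these counts the cause was not tested, except that the filter leaves fewer genes.

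The replicate number was added as a block to the fits on only the libraries compared. Calls were then 236, 0 and 0 between the reporter-negative lines and 9400, 1074 and 799 for TAA. Without the block these fits gave 555, 0 and 0 and 9596, 1013 and 630. Each gene's group mean was subtracted, and the remaining deviations were correlated across genes between libraries. For same-numbered libraries these correlations were -0.043 to 0.066 (TAA and control) and -0.176 to 0.147 (reporter-negative libraries of different lines). The highest between libraries of different numbers were 0.041 and 0.195. The main fits used no pairing by number. Reporter-positive and reporter-negative control libraries of the same line, which may share fish, were not compared in this way, so pairing between them was not tested. The sign-flip test of the set's mean and its permutation test were not run, since the genes were chosen on these values. The deposited table holds no depth per library.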
